A study of Arabidopsis thaliana with 8 samples.

Results

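A shared set of 47 *Arabidopsis* transcripts, each at least 2-fold higher than in empty-vector plants upon ectopic expression of *IaTCP1*, of *TCP1* and of *CYC* alike, is described here among the 22746 probe sets of the array that are not hybridisation controls. A probe set is a group of short probes on the array that reports 1 transcript, or a few nearly identical ones. The members were chosen from the measured values themselves: the mean log2 intensity of the 2 arrays of a transgene had to exceed the mean of the 2 empty-vector arrays by 1 or more for all 3 transgenes. That criterion alone took 74 probe sets (0.325% of all probe sets), of which 27 were set aside because they belong to other groups of genes. These were 13 plastid-encoded transcripts, 4 cytochrome P450 genes, 2 *MYB* genes and 8 single genes, among them *DWF4*, *TCP9* and *BGLU28*. The height of a member above the empty vector is therefore a description, without a test, whereas the order of the 3 transgenes was not used for the choice and was tested.

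All plants were *Arabidopsis thaliana* of the cultivar Columbia, as T2 lines, and secondary inflorescences whose flowers had not yet opened were collected. The 3 transgenes were *IaTCP1* from *Iberis amara*, the *Arabidopsis* gene *TCP1* and *CYCLOIDEA* (*CYC*) from *Antirrhinum majus*, each driven by the constitutive *CaMV35S* promoter in the pBAR vector. Controls carried the empty vector. Each group was 1 transgenic line with 2 technical RNA samples (2 arrays per group, 8 in all), so errors and p-values cover the spread between RNA samples and not that between lines or plants.

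The 3 transgenes encode TCP transcription factors of the *CYC2* clade, plant-specific proteins with a non-canonical basic helix-loop-helix domain that bind GC-rich DNA motifs. *CYC* is expressed on the dorsal side of the *Antirrhinum* flower and makes it monosymmetric, *IaTCP1* is expressed more strongly in the smaller adaxial petals of *Iberis*, and *TCP1* is expressed only transiently on the adaxial side of the young floral meristem of *Arabidopsis*. The constitutive promoter serves for ectopic expression, but in which tissues of the inflorescence the proteins were present was not measured here. A transcript that is higher for all 3 transgenes may lie at any distance downstream.

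All values are log2 intensities on Affymetrix ATH1 arrays, so that a difference of 1 is a 2-fold difference in signal. Array medians were 6.48 to 6.56, and the 2 arrays of a group correlated with r = 0.997 to 0.998. The difference in signal between 3′ and 5′ probes, which grows when RNA is shorter, was 3.81 and 3.93 for actin in the empty-vector arrays, 3.83 and 4.10 for *IaTCP1*, 4.26 and 4.28 for *TCP1*, and 4.13 and 4.43 for *CYC*; its part in the results was not tested. *AP1*, the only one of 6 floral identity markers with a named probe set, had a log2 intensity of 11.14 ± 0.03 (SD, n = 2) in the controls and fell in *CYC* plants by 1.40 on the log2 scale (adjusted p = 2.57e-07, limma). It was also lower with *IaTCP1* and *TCP1*, with changes of -0.62 and -0.44. The mean log2 level of 5 named pollen genes (of 7 listed) was 10.16 to 10.17 in the control arrays, 7.87 to 7.89 for *IaTCP1*, 9.04 to 9.12 for *TCP1* and 10.03 to 10.05 for *CYC*. That of 2 named tapetum genes (of 5 listed) was 10.10 to 10.14, 9.42 to 9.57, 9.35 and 8.30 to 8.32 in the same order. Among other tissues, the leaf gene *RCA* (1 of 7 listed named) differed from the control by 0.15 or less, the seed gene *OLEO3* (1 of 4) was at 5.85 to 6.09 in the controls and 9.71 to 9.83 for *CYC*, and none of 6 root genes was named. The part of these cell types in the levels of the shared set was not tested. In inflorescence RNA, fewer cells of a type and less RNA per cell cannot be told apart.

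In all 47 members every one of the 6 transgene arrays was above both control arrays, which the selection largely imposes (14.6% of all probe sets show it). In 37 members the lowest transgene array was still 1 or more above the higher control array (0.246% of all probe sets). The median height over the empty vector was 1.76 for *IaTCP1*, 1.60 for *TCP1* and 1.55 for *CYC*, against 0.05, 0.03 and 0.02 over all probe sets, which is again a consequence of the selection. The smallest of the 3 changes reached 1.5 in 15 members and 2 in 2 members. Nearest to the limit of 1 lay *NGA2* (1.00 in *TCP1* plants), the probe set shared by *PCR2* and *PCR1* (1.02 in *CYC* plants) and *AT4G12890* (1.02 in *IaTCP1* plants), and just outside it *RVE1* (0.99) and 2 unnamed probe sets (0.98 and 0.97).

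**Figure D1:**
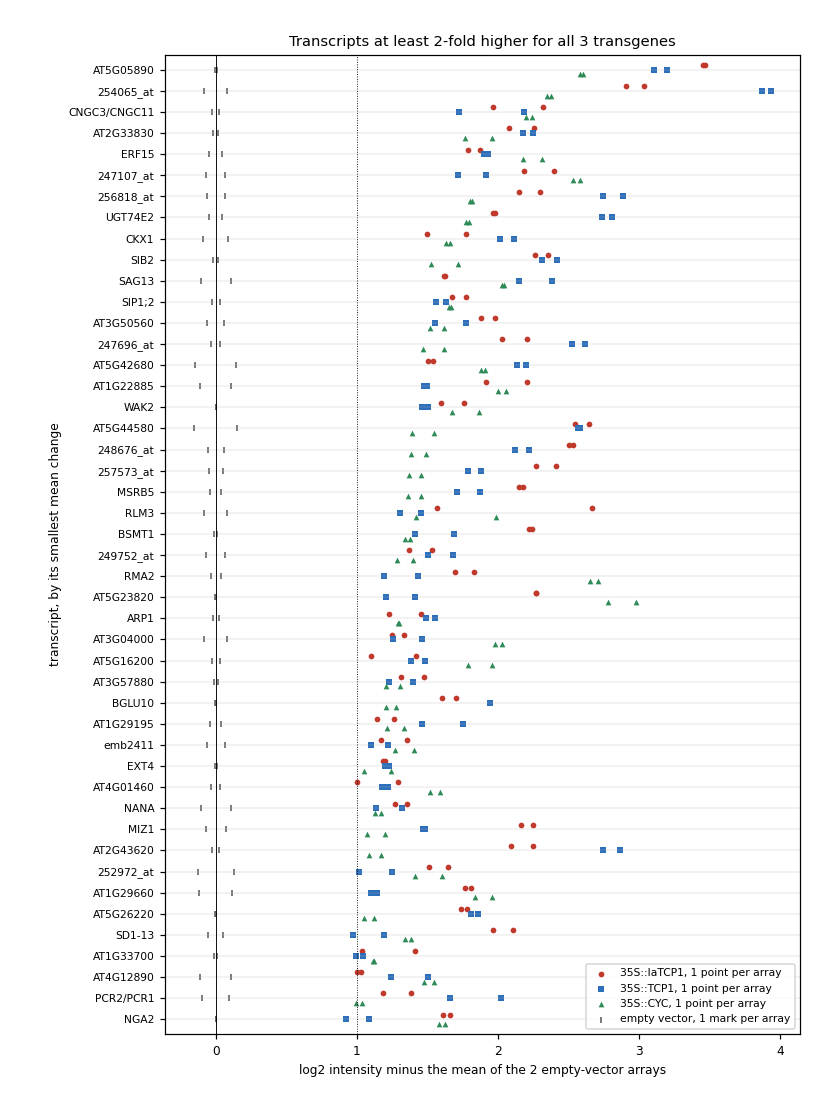
Log2 intensity of each member in each array minus the mean of the 2 empty-vector arrays (horizontal axis), 1 row for each of 46 members, ordered by the smallest of its 3 mean changes; circles are *IaTCP1* arrays, squares *TCP1* arrays, triangles *CYC* arrays and grey marks the empty-vector arrays. The dotted line marks the 2-fold limit used for selection, and in all 46 rows every coloured point lies right of both grey marks.

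The named member whose smallest change was the largest (2.59, with *CYC*) was *AT5G05890*, a UDP-glycosyltransferase encoded in the *UGT76C* cluster. Its log2 intensity was 4.05 and 4.06 in the 2 empty-vector arrays, 7.51 and 7.52 with *IaTCP1*, 7.25 and 7.17 with *TCP1*, and 6.64 and 6.66 with *CYC*. The 4 groups did not overlap and stood in the order *IaTCP1*, *TCP1*, *CYC*, control, corresponding to 11.0-fold, 8.90-fold and 6.03-fold over the empty vector. Whether the low control level stood above background was not tested, as the values carry no detection calls, so these folds are approximate. The same limit applies to *RLM3*, *AT2G33830*, *ERF15* and *MIZ1*, described below, with control means of 3.88, 4.22, 4.22 and 4.36. The other 2 members that act on sugar bonds showed smaller changes. *BGLU10*, a beta-glucosidase, had group means of 9.10 in the control and 10.76, 11.05 and 10.34 in *IaTCP1*, *TCP1* and *CYC* plants. *AT1G33700*, annotated as a beta-glucosidase of another family, went from 5.02 to 6.25, 6.04 and 6.14.

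A group of 5 members that are described here makes, inactivates or responds to plant hormones. *UGT74E2*, which glucosylates the auxin precursor indole-3-butyric acid, was measured at 7.51 and 7.60 in the controls, 9.53 and 9.52 in *IaTCP1*, 10.37 and 10.29 in *TCP1* and 9.33 and 9.35 in *CYC* plants. Both *TCP1* arrays were above all others, and the 2 other transgenes lay within 0.19 of each other in their means. *CKX1*, a cytokinin oxidase that breaks down cytokinins, was at 5.91 and 5.73 in the controls, at 7.59 and 7.31 with *IaTCP1*, at 7.93 and 7.83 with *TCP1* and at 7.48 and 7.45 with *CYC*. Here too the *TCP1* arrays were highest, while the *CYC* values fell between the 2 *IaTCP1* values. *AT2G33830*, a dormancy/auxin associated protein, was at 4.21 and 4.24 in the controls against 6.30 and 6.48 (*IaTCP1*), 6.40 and 6.47 (*TCP1*) and 5.99 and 6.18 (*CYC*). Its *IaTCP1* and *TCP1* arrays overlapped and the *CYC* arrays were below them.

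The other 2 hormone genes concern the response to ethylene and methylated salicylate. *ERF15*, an ethylene response factor of group IX, had 4.18 and 4.27 in the controls, 6.10 and 6.01 with *IaTCP1*, 6.12 and 6.15 with *TCP1* and 6.40 and 6.53 with *CYC*, with both *CYC* arrays on top. *BSMT1*, the methyltransferase that forms methyl salicylate and methyl benzoate, was highest with *IaTCP1*, with means of 8.38 in the control and 10.62, 9.93 and 9.74 in *IaTCP1*, *TCP1* and *CYC* plants.

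A further 8 members belong to defence and signal perception. The probe set that names both *CNGC3* and *CNGC11*, adjacent genes for cyclic nucleotide-gated cation channels that it cannot separate, was at 5.72 and 5.77 in the controls, 8.07 and 7.72 with *IaTCP1*, 7.47 and 7.94 with *TCP1* and 7.95 and 7.99 with *CYC*. The *IaTCP1* arrays overlapped those of *TCP1* and *CYC*, the *CYC* arrays were just above the *TCP1* arrays, and all 6 were above both controls. *SIB2*, a VQ protein that binds plastid sigma factors and WRKY proteins, had 6.30 and 6.26 in the controls, 8.63 and 8.55 with *IaTCP1*, 8.59 and 8.70 with *TCP1* and 7.80 and 8.001 with *CYC*. *IaTCP1* and *TCP1* overlapped for *SIB2*, and both *CYC* arrays were lower. *SAG13*, a short-chain dehydrogenase gene used as a marker of senescence, showed 5.96 and 6.17 in the controls, 7.69 and 7.68 with *IaTCP1*, 8.21 and 8.45 with *TCP1* and 8.11 and 8.09 with *CYC*, so that *IaTCP1* was the lowest of the 3.

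Among the receptor genes, *WAK2*, a wall-associated kinase that binds pectin, had a mean of 5.01 in the control and 6.68, 6.49 and 6.78 in *IaTCP1*, *TCP1* and *CYC* plants. *SD1-13*, an S-domain receptor-like kinase, went from 4.97 to 7.002, 6.05 and 6.33. *RLM3*, a TIR-domain protein that contributes to resistance against fungal pathogens, was the member with the poorest agreement between arrays. Its 2 *IaTCP1* arrays read 6.55 and 5.45 and its 2 *CYC* arrays 5.87 and 5.30, against 3.96 and 3.80 in the controls and 5.34 and 5.18 with *TCP1*. These gaps of 1.10 and 0.56 were the widest between paired arrays in those groups, where the median gap of the members was 0.12 and 0.07, so that the order of the transgenes is not resolved for *RLM3*.

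Between the remaining pair of defence genes the order of the transgenes was reversed. *AT2G43620*, a chitinase, had 5.02 and 5.07 in the controls, 7.13 and 7.29 with *IaTCP1*, 7.79 and 7.91 with *TCP1* and only 6.22 and 6.13 with *CYC*. *AT5G23820*, a protein of the MD-2-related lipid recognition family, had 6.42 and 6.43 in the controls, 8.70 and 8.70 with *IaTCP1*, 7.63 and 7.84 with *TCP1* and 9.41 and 9.20 with *CYC*. The 4 groups of either gene were fully separated, with *TCP1* highest and *CYC* lowest for the chitinase, and *CYC* highest and *TCP1* lowest for the lipid recognition gene.

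Of 4 members for redox and glutathione metabolism, 2 were lowest with *CYC*. *MSRB5*, a methionine sulfoxide reductase that repairs oxidised proteins, had means of 8.29 in the control and 10.45, 10.08 and 9.70 in *IaTCP1*, *TCP1* and *CYC* plants. *AT5G26220*, a gamma-glutamyl cyclotransferase that degrades glutathione, had 8.09, 9.85, 9.92 and 9.17 in the same order. The other pair was highest with *CYC*. *AT3G04000*, an aldehyde reductase, had 5.41, 6.70, 6.77 and 7.42, and *AT4G12890*, a thiol reductase of the GILT family, had 6.45, 7.47, 7.82 and 7.96.

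Membrane, cell wall and protein turnover genes made up 6 members and contained the most even ones. *SIP1;2*, an aquaporin of the endoplasmic reticulum, was at 6.95 and 7.01 in the controls and at 8.66 and 8.75, 8.54 and 8.61, and 8.65 and 8.63 in *IaTCP1*, *TCP1* and *CYC* plants. All 6 transgene arrays of *SIP1;2* lay within a narrow band, and the 3 changes were 3.31-fold, 3.03-fold and 3.16-fold. *EXT4*, an extensin of the cell wall, was the most even of all, with changes of 1.20, 1.21 and 1.15 that spanned 0.06. *NANA*, a plastid aspartic protease, spanned 0.16 between its changes of 1.31, 1.23 and 1.15. *RMA2*, a membrane-anchored RING ubiquitin ligase, was not even: it had 5.60 and 5.67 in the controls, 7.34 and 7.47 with *IaTCP1*, 6.84 and 7.07 with *TCP1* and 8.29 and 8.35 with *CYC*. The groups of *RMA2* did not overlap and *CYC* was the highest, as for *AT5G23820*. *AT1G29660*, a GDSL-type lipase, had changes of 1.79, 1.12 and 1.90, and the probe set for *PCR2* and *PCR1*, adjacent plant cadmium resistance genes that it cannot separate, had changes of 1.29, 1.84 and 1.02.

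Transcription, RNA and DNA were represented by 5 members, all with changes under 2. *NGA2*, a B3-domain factor that shapes the style and the margins of lateral organs, had means of 6.29 in the control, 7.93 with *IaTCP1*, 7.30 with *TCP1* and 7.90 with *CYC*. The bHLH gene *AT4G01460* changed by 1.15, 1.20 and 1.55, and *AT5G16200*, grouped here by its annotation as related to a ribosomal protein, by 1.26, 1.43 and 1.87. Changes were more even for *ARP1*, an abscisic acid regulated RNA-binding protein (1.34, 1.52 and 1.30), and for *emb2411*, a helicase and nuclease of DNA replication (1.26, 1.16 and 1.34).

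The set held 2 genes of the DUF617 family, for which no other gene was listed. *MIZ1*, which is required for hydrotropism of *Arabidopsis* roots, had 4.29 and 4.43 in the controls, 6.61 and 6.52 with *IaTCP1*, 5.84 and 5.83 with *TCP1* and 5.56 and 5.43 with *CYC*. *AT5G42680* had 6.49 and 6.79 in the controls, 8.15 and 8.18 with *IaTCP1*, 8.78 and 8.84 with *TCP1* and 8.55 and 8.52 with *CYC*. The groups of both genes were separated, but *IaTCP1* was the highest of the transgenes for *MIZ1* and the lowest for *AT5G42680*.

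To 5 more loci no function is assigned here. *AT3G50560* had 6.90 and 7.02 in the controls, 8.84 and 8.94 with *IaTCP1*, 8.51 and 8.74 with *TCP1* and 8.47 and 8.57 with *CYC*. *AT5G44580* had 5.55 and 5.86 in the controls, 8.25 and 8.35 with *IaTCP1*, 8.29 and 8.27 with *TCP1* and 7.10 and 7.25 with *CYC*. *IaTCP1* and *TCP1* overlapped for *AT5G44580*, at 6.05-fold and 5.96-fold over the control, whereas the *CYC* arrays were lower at 2.77-fold. For *AT1G22885*, *AT1G29195* and *AT3G57880* the lowest of the 3 changes was 1.49, 1.20 and 1.25 and the highest 2.06, 1.61 and 1.40.

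The remaining 8 probe sets carry no gene name in the tables used here, and it was therefore not possible to apply the exclusions by gene to them. The largest changes among them with *IaTCP1* and *TCP1* were those of 254065_at, with 5.77 and 5.93 in the controls, 8.76 and 8.88 with *IaTCP1*, 9.72 and 9.79 with *TCP1* and 8.20 and 8.23 with *CYC*. Its *TCP1* change of 3.90 (15.0-fold) was the highest of any member. The probe set 247107_at had 8.82 and 8.95 in the controls, 11.07 and 11.28 with *IaTCP1*, 10.60 and 10.80 with *TCP1* and 11.42 and 11.47 with *CYC*. In 256818_at and 247696_at the order was that of 254065_at, *TCP1* before *IaTCP1* before *CYC*. The former had 6.88 and 7.01 in the controls, then 9.09 and 9.24, 9.69 and 9.83, and 8.75 and 8.76 in *IaTCP1*, *TCP1* and *CYC* plants. The latter had 5.73 and 5.79, 7.79 and 7.97, 8.29 and 8.38, and 7.23 and 7.38. In 248676_at *IaTCP1* was highest, with 6.28 and 6.39 in the controls, 8.84 and 8.87 with *IaTCP1*, 8.46 and 8.56 with *TCP1* and 7.72 and 7.83 with *CYC*. For the other 3 the changes lay between 1.13 and 2.34.

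Because the selection set no order among the transgenes, it was asked next whether members differ between them. No single transgene was the strongest throughout: the mean was highest with *IaTCP1* in 17 members, with *TCP1* in 17 and with *CYC* in 13, and lowest in 10, 14 and 23. The 3 direct comparisons were tested with limma over all 22746 probe sets, with Benjamini-Hochberg adjustment, and a difference was called at an adjusted p of 0.05 or less and at least 2-fold. Between the crucifer genes *IaTCP1* and *TCP1*, 0 of 47 members were called, where 0.642% of all probe sets were (0.299% higher and 0.343% lower with *IaTCP1*). This count is close to that share and holds only for the members. Among the probe sets set aside, *AIR3* had changes against the empty vector of 4.30 with *IaTCP1* and 2.40 with *TCP1*, and plastid *psaC* of 1.54 and 2.88. The member differences between *IaTCP1* and *TCP1* ran from -0.93 for 254065_at to 0.96 for *AT5G23820*, with a median of 0.02. They were not equal, however: 29 members had an unadjusted p of 0.05 or less, and 23 an adjusted p of 0.05 or less without the fold minimum (48.9%, against 6.35% of all probe sets), 13 higher with *IaTCP1* and 10 higher with *TCP1*. Next to *AT5G23820* stood *SD1-13*, which was 1.93-fold higher with *IaTCP1* (adjusted p = 8.85e-05, limma). The count became 2 when the second *IaTCP1* array was left out (*RLM3* and *SD1-13*) or the second *TCP1* array (*AT5G23820* and *SD1-13*).

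Against *CYC*, 4 of 47 members (8.51%) were called for *IaTCP1*, where 2.72% of all probe sets were (0.743% higher and 1.97% lower with *IaTCP1*), and all 4 were higher with *IaTCP1*. *AT5G44580* was higher by 1.12 (95% interval 0.89 to 1.36, adjusted p = 1.13e-05, limma), *MIZ1* by 1.07 (0.87 to 1.27, adjusted p = 3.81e-06), *AT2G43620* by 1.04 (0.84 to 1.24, adjusted p = 5.39e-06) and 248676_at by 1.08. Without the fold minimum 26 members passed (55.3%, against 17.3% of all probe sets), 16 of them higher with *IaTCP1* and 10 higher with *CYC*. The call of *AT2G43620* is at the limit: its difference was 0.96 without the second *IaTCP1* array and 1.00, just under the limit, without the second *CYC* array.

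For *TCP1* against *CYC*, 7 of 47 members (14.9%) were called, where 1.99% of all probe sets were (0.607% higher and 1.38% lower with *TCP1*). Higher with *TCP1* were *AT2G43620* by 1.67 (3.19-fold, 95% interval 1.47 to 1.88, adjusted p = 1.72e-07, limma), 254065_at by 1.54, *AT5G44580* by 1.11 (adjusted p = 1.78e-05) and the unnamed 247696_at and 256818_at by 1.03 and 1.01. Higher with *CYC* were *AT5G23820*, for which *TCP1* minus *CYC* was -1.57 (2.97-fold, 95% interval -1.79 to -1.35, adjusted p = 4.91e-07), and *RMA2* at -1.37 (2.58-fold, adjusted p = 1.6e-06). *UGT74E2* lay just under the fold minimum, at 0.99 higher with *TCP1* (adjusted p = 5.73e-06). Without that minimum 28 members passed (59.6%, against 17.5% of all probe sets), 17 of them higher with *TCP1* and 11 higher with *CYC*. The background shares include probe sets of every level and change, and the 3 comparisons share their arrays pairwise. The 3′ minus 5′ difference of GAPDH, whose part was not tested, was 1.73 and 1.78 in the *TCP1* arrays, 1.62 in both *CYC* arrays and 1.53 and 1.37 in the *IaTCP1* arrays.

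**Figure D2:**
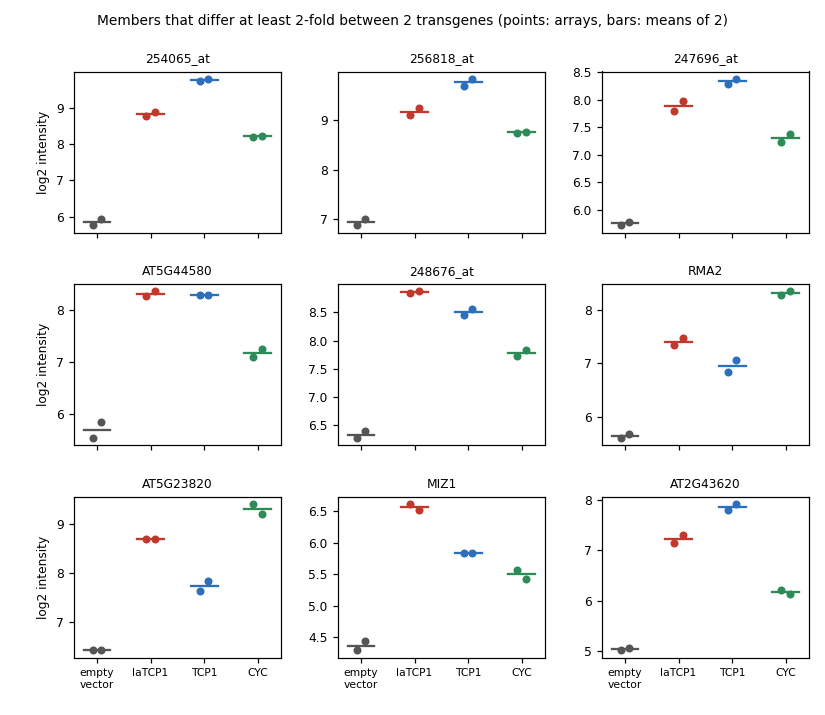
Log2 intensity (vertical axis) of the 9 members called in at least 1 direct comparison, in plants with the empty vector, *IaTCP1*, *TCP1* or *CYC*; points are single arrays, bars the means of 2, and the vertical axes differ and do not start at 0. *CYC* is the lowest transgene in 7 panels and the highest for *RMA2* and *AT5G23820*.

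In all, 9 members differed in at least 1 comparison, and *AT2G43620* and *AT5G44580* differed from *CYC* for both crucifer genes. At the other end, 31 members had 95% intervals of all 3 direct differences inside a 2-fold band, a bound that 94% of all probe sets also met. Among these 31 were *CNGC3*/*CNGC11*, *AT2G33830*, *ERF15*, *CKX1*, *SIB2*, *SAG13*, *SIP1;2*, *WAK2*, *MSRB5*, *ARP1*, *EXT4*, *NANA* and *NGA2*. For *EXT4* the differences were -0.02 (-0.21 to 0.18) between *IaTCP1* and *TCP1*, 0.05 (-0.15 to 0.24) between *IaTCP1* and *CYC*, and 0.06 (-0.13 to 0.26) between *TCP1* and *CYC*. For *CNGC3*/*CNGC11*, with its wider replicate spread, the interval reaching farthest from 0 was -0.58 to 0.05, between *TCP1* and *CYC*.

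**Figure D3:**
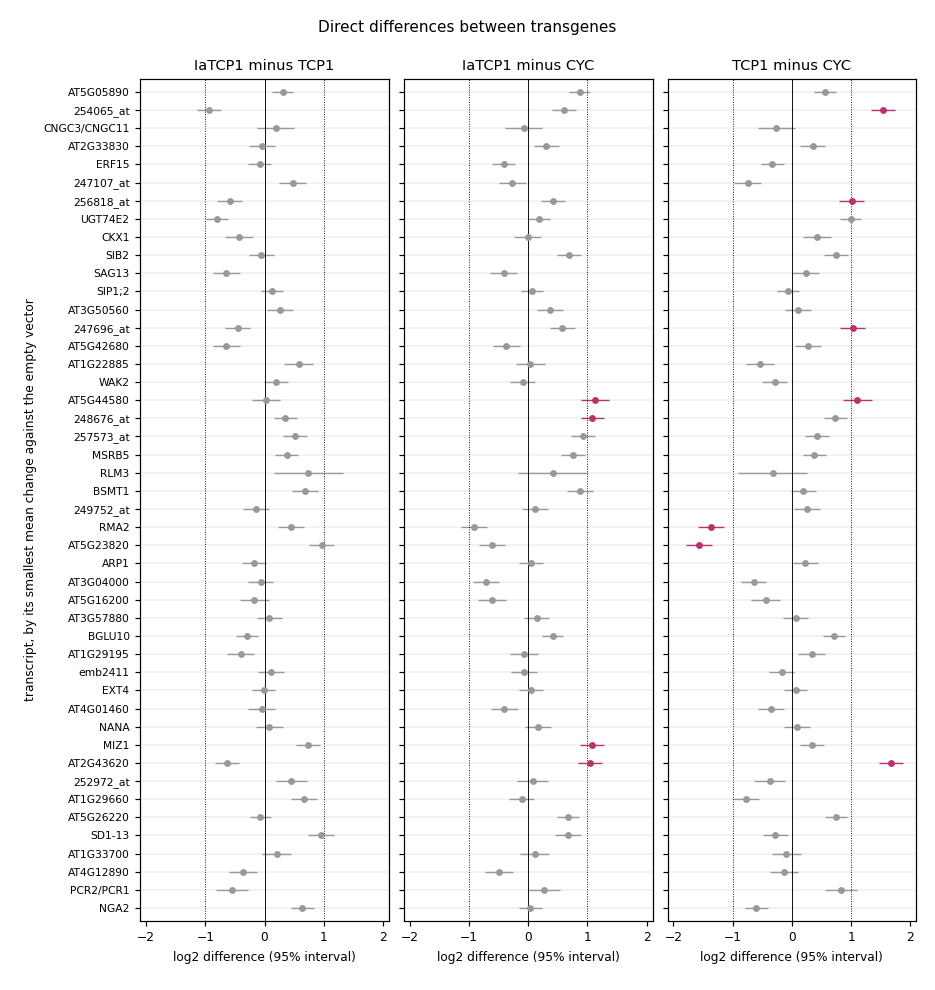
Differences in log2 intensity between transgenes (horizontal axes) for 46 members, 1 row each, as *IaTCP1* minus *TCP1*, *IaTCP1* minus *CYC* and *TCP1* minus *CYC*; points are estimates, bars 95% intervals from limma, dotted lines 2-fold, and coloured points are called. No point is coloured for *IaTCP1* minus *TCP1*, 4 for *IaTCP1* minus *CYC* and 7 for *TCP1* minus *CYC*, and the long bars belong to *RLM3*.

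The next question was whether the height of a member was shared by its gene family or pathway. The 27 lists held 161 different genes beside the list of 40 beta-glucosidases. Of all these, 70 genes other than members had a named probe set. Against the empty vector, 7 of the 70 rose and 6 fell with *IaTCP1*, 4 rose and 2 fell with *TCP1*, and 10 rose and 6 fell with *CYC* (over all probe sets, 0.976%, 0.659% and 1.53% rose and 2.35%, 1.25% and 1.55% fell). Their median changes were 0.04, -0.02 and 0.07. Since 11 of the 70 carry a name only from the study's own lists of changed genes, and *BGLU28* and *AT1G12010* were set aside above although they are higher for all 3 transgenes, the count was repeated on the 57 others: 2, 1 and 2 rose, and 3, 1 and 3 fell. A gene that rose for all 3 transgenes would itself have been chosen or set aside, so these counts can only show changes with some of them.

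In a part of the lists no gene beside the member was called, as for most probe sets of the array. None of the 4 other *UGT76C* genes beside *AT5G05890* and none of the 4 other *UGT74* genes beside *UGT74E2* was called for any transgene. The same held for the other 3 *NGATHA* factors beside *NGA2*, the other 3 genes of the *MSRB* list, 4 S-domain kinases beside *SD1-13*, 2 lipid recognition genes beside *AT5G23820*, and 2 senescence markers beside *SAG13*. It held as well for the single other genes named in the lists of extensins, of glutathione metabolism, of the *RLM3* region and of bHLH factors close to *AT4G01460*. For the *VQ*, *RMA*, *SIP* and *PCR* lists no further gene was named. Uncalled genes could still change by less than 2-fold, in either direction. With *IaTCP1*, *TCP1* and *CYC*, the bHLH gene *AT3G61950* had changes of -0.83, -0.88 and -0.58, and *UGT74F1* of -0.85, -0.70 and -0.57. *AT1G44790*, in the glutathione list, had changes of 0.38, 0.52 and 0.70. Some uncalled genes had low signal in every group, such as *AT5G05900* (means of 3.71 to 3.78) and the S-domain kinase *AT1G11340* (3.63 to 3.77). Whether such genes were expressed at all was not tested.

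In other families genes moved apart from the member. Of the genes in this paragraph, *IAMT1*, *CNGC4*, *BGLU9*, *BGL2* and *PR5* have a name only from the study's lists of changed genes, so that others of their lists may go unseen. *JMT*, the methyltransferase of jasmonate, fell by 1.08 with *IaTCP1* and by 1.61 with *CYC* (adjusted p = 1.25e-06 and 5.63e-08, limma), and *IAMT1*, that of auxin, fell by 1.28 and 1.92, whereas their relative *BSMT1* is a member. With *TCP1* the changes of *JMT* and *IAMT1* were -0.71 and -0.69, short of the 2-fold limit. The dormancy-associated gene *AT1G54070* fell by 1.61 with *IaTCP1*, and *CNGC4* by 1.10. With *TCP1* and *CYC* the changes were -0.97 and -0.34 for *AT1G54070*, and -0.73 and -0.64 for *CNGC4*. *BGLU47* fell with all 3 transgenes (by 1.12, 1.21 and 1.32), in contrast to *BGLU10*. *BGLU9*, the gene next to *BGLU10*, fell by 1.19 with *CYC* and had changes of -0.53 and -0.22 with *IaTCP1* and *TCP1*. The list of salicylic acid and defence markers held no member, and its genes went different ways. In it the beta-glucanase gene *BGL2* rose by 2.51 with *IaTCP1* and by 1.27 with *CYC*, and had a change of 0.80 with *TCP1*. *PR5* fell by 2.40, 1.83 and 1.76 with *IaTCP1*, *TCP1* and *CYC*, and *PDF1.2* and *SAG101* were not called for any transgene.

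Some relatives rose for a part of the transgenes. *ARR9*, a type-A response regulator induced by cytokinin, rose by 1.60 with *IaTCP1* and 2.15 with *TCP1* and had a change of 0.44 with *CYC*, and its relative *ARR15* fell by 1.21 with *CYC*. The 4 other group IX factors with a name, *ERF-1*, *ERF104*, *ERF6* and *ORA59*, rose with *CYC* (by 2.02, 2.02, 1.75 and 1.11), and their changes with *IaTCP1* and *TCP1* were between -0.13 and 0.48. These 4, like *ARR9*, are named only from the study's lists of changed genes, so that others of their groups may go unseen. The thiol reductase *GILT* rose by 1.42 with *CYC* and had values of -0.79 and -0.49 with *IaTCP1* and *TCP1*.

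**Figure D4:**
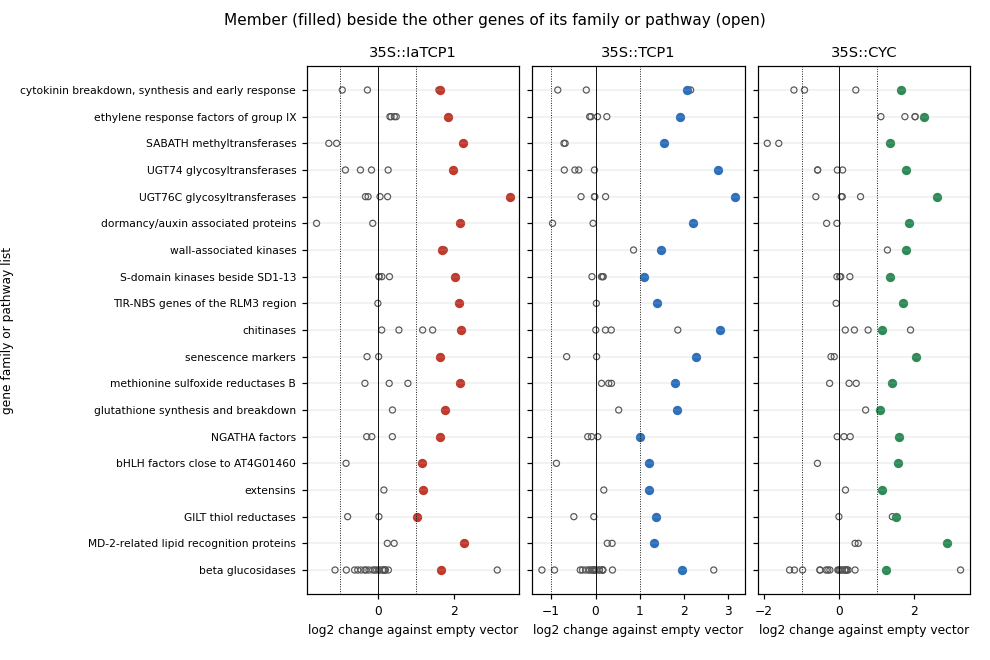
Log2 change against the empty vector (horizontal axes) for each member (filled) and the other named genes of its list (open), 1 row per list shown, each with 1 member and at least 1 other gene, for *IaTCP1*, *TCP1* and *CYC*; dotted lines mark 2-fold. Filled points lie right of the upper dotted line by selection, and most open points lie between the dotted lines; the open point farthest right is *BGLU28*, in the bottom row.

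The chitinase list contained a run of neighbouring genes on chromosome 2. *AT2G43610*, directly beside the member *AT2G43620*, had log2 intensities of 7.34 and 7.44 in the controls, 8.79 and 8.86 with *IaTCP1*, 9.31 and 9.18 with *TCP1* and 8.08 and 8.24 with *CYC*. It rose by 1.44 with *IaTCP1* and by 1.86 with *TCP1* and had a change of 0.77 with *CYC*, and *TCP1* exceeded *CYC* by 1.09 (adjusted p = 6.64e-06, limma), the order seen for *AT2G43620*. The nearby *AT2G43590* had the opposite order: it rose with *CYC* by 1.90, and *TCP1* minus *CYC* was -1.54 (adjusted p = 2.97e-07). *CHI* (*AT2G43570*) rose with *IaTCP1* by 1.18. Hybridisation of one probe set by transcripts of its tandem copies was not tested.

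Over the whole genome, 39 members could be placed in the gene order, 11, 8, 7, 6 and 7 on chromosomes 1 to 5. The nearest named gene with a probe set on either side gave 78 neighbours, of which 44 were directly adjacent. None of the neighbours was itself a member. With *IaTCP1* 5 neighbours rose and 3 fell, with *TCP1* 1 rose and 0 fell, and with *CYC* 6 rose and 2 fell (over all probe sets 0.976%, 0.659% and 1.53% rose and 2.35%, 1.25% and 1.55% fell), and the medians of the 78 were 0.11, 0.07 and 0.04. The 7 neighbours named only from the study's lists of changed genes were *WAK1*, *AT3G03990*, *ERD6*, *UMAMIT30*, *TIP1;3*, *LLG3* and *BGLU9*. All 7 were among those called for some transgene, and of the 71 others 2, 1 and 3 rose. Besides *AT2G43610*, adjacent genes that rose were *WAK1* beside *WAK2* (1.74 with *IaTCP1* and 1.28 with *CYC*), *AT1G22890* beside *AT1G22885* (1.91 and 1.44), *AT3G03990* beside *AT3G04000* (1.03 and 1.18), and, with *CYC*, *AT2G41190* beside *SIB2* (1.501) and *AT2G29340* beside *SAG13* (1.37). For the first 3 of these pairs the neighbour's change with *TCP1* was below 2-fold, at 0.86, 0.75 and 0.80. *AT1G22890* also differed between the crucifer genes, by 1.16 higher with *IaTCP1* than with *TCP1* (adjusted p = 1.42e-05, limma), where the member *AT1G22885* differed by 0.57. Other adjacent genes fell although the member was higher. With *IaTCP1*, the genes on either side of *AT4G01460*, *UMAMIT30* and *TIP1;3*, had changes of -1.06 and -1.47. *LLG3* beside *RMA2* also fell with *IaTCP1*, just past the 2-fold limit. With *CYC*, *BGLU9* beside *BGLU10* had a change of -1.19.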

How the data were processed

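Total RNA from secondary inflorescences was hybridised to Affymetrix ATH1 arrays. The authors deposited log2 intensities, processed with RMA in Partek per the labels (versions not given in the sources used here); RMA corrects background, quantile-normalises and summarises probes, and the values carry no detection calls. Members, gene lists and role groups were chosen with earlier results of these data known. Differences were computed from these values, after removal of 64 control probe sets, with limma 3.58.1 in R 4.3.3 (lmFit with 1 mean per group, eBayes, 4 residual and 7.9 prior degrees of freedom) and adjusted by Benjamini-Hochberg within each comparison. The methods of the study state its criteria, 2-fold and a p of 0.05 or less, without naming a test. The fit was tested on simulated data. Precision is limited by 2 arrays per group.

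Of 22746 probe sets, 14016 were named from the platform annotation (503 with several genes), 454 only from the study's lists of changed genes, whose fold changes and p-values were not used, and 8276 were unnamed here. Of the members 18, 21 and 8 fell in these classes. RefSeq's annotation of assembly TAIR10.1 supplied loci and gene order. The probe set of *TCP1* itself and promoter sequences were not analysed here. Every member with a gene name is named, except 1 that is counted but not reported here. All 8 values are printed where the smallest change was 1.5 or more or where a direct comparison was called, and those of *RLM3* were added after its values were seen. Of a list, up to 4 called genes are named. The text also singles out genes next to members, chosen after their values were seen. Alternatives were cyclic loess, median centring, other fold limits, a filter on dim probe sets, an intensity trend, a fit on 4 arrays, a replicate block and leaving out each array.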

Additional observations from a re-analysis of the deposited data

How the results depend on the processing

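The set of 47 became 15 with a log2 limit of 1.5, 46 after cyclic loess and 49 after median centring. It became 37 when every transgene array had to exceed both control arrays by 1, and 46 without dim probe sets. With an added adjusted p of 0.05 or less against the controls (limma) it stayed at 47, which the selection on the same values largely imposes. Leaving out single arrays gave 46 to 51. These totals hide some exchange: 44 of the 47 stayed without the second *TCP1* array and 45 without the first control array. Members called between transgenes numbered 0 (*IaTCP1* and *TCP1*), 4 (*IaTCP1* and *CYC*) and 7 (*TCP1* and *CYC*). Without a fold minimum the counts were 23, 26 and 28, and without single arrays 0 to 2, 3 to 4 and 6 to 8. Arrays of the same number deviated together (r of their deviations 0.16 to 0.52 over 6 pairs of groups), but only 2 numbers exist and nothing in the labels links them. With the replicate number as a block the counts stayed at 0, 4 and 7. Of 154 alternative values for the 11 called differences, 148 kept their call, 6 fell just under 2-fold and 0 turned direction. The 6 were *AT2G43620* between *IaTCP1* and *CYC* (0.99 after cyclic loess, 0.96 and 1.00 without the second *IaTCP1* or *CYC* array), 247696_at without the second *TCP1* array (0.98) or the first *CYC* array (0.95), and 256818_at without the second *TCP1* array (0.94). The cause was not tested. Calls in the family lists numbered 35 over the 3 transgenes, and again 35 after cyclic loess.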
